A study of Homo sapiens with 9 samples.

Results

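CYFIP2 and its partners in the WAVE regulatory complex were examined in HEK293T cells that stably expressed WT, G245S or R273H p53. The 9 genes analysed were CYFIP2, its paralog CYFIP1, NCKAP1, the WAVE genes WASF1, WASF2 and WASF3, the adaptor genes ABI1 and ABI2, and BRK1, out of 78986 genes in the count table. CYFIP2 was chosen by its measured fall in the mutant lines relative to WT in these same libraries. Its values in those comparisons are therefore a description and carry no test. The other 8 genes follow from the composition of the complex and not from their values.

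The libraries came from 3 lines, each with 3 biological replicates, of a human embryonic kidney line that carries SV40 large T antigen, a viral protein that binds p53. Each line was made by lentiviral delivery of a p53 construct and kept in puromycin: WT p53, G245S p53, or R273H p53, the last 2 being amino acid changes in the DNA-binding domain. All 9 libraries thus share the T antigen, the lentivirus and the drug, and no line without a p53 construct was analysed here. The methods describe selection of infected cells without a cloning step, and 1 line stands for each p53 form, so a difference between p53 forms and a difference between lines cannot be told apart. Replicates of a line measure its spread between cultures.

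The depth of a library was between 1486315 and 9667306 counts. WT replicate 3 was by far the shallowest and was left out of the fits, which leaves 2 WT libraries against 3 of each mutant. That library also stood apart in marker genes: the summed level of 5 epithelial markers was 267.3 CPM there (CPM being counts scaled by TMM to a common library size) and 73.5 to 84.6 CPM in the other 8, with the keratin gene KRT19 at 34.1 CPM against 0.32 to 1.33. The labels call the cells epithelial. In the 8 libraries fitted, the epithelial keratins KRT18 and KRT8 were 58.8 to 68.8 and 9.65 to 12.1 CPM and made up most of the epithelial sum, while CDH1, EPCAM and KRT19 reached at most 3.42 CPM. Of 4 embryonic kidney markers, SIX2 was 27.5 to 36.2 CPM, WT1 5.19 to 7.13 and PAX2 2.18 to 4.87, and PAX8 was at most 0.23 CPM, under 3 counts in each of these libraries. The neurofilament gene NEFM was 125.4 to 193.1 CPM. The summed epithelial level was 73.5 to 80.2 CPM in the fitted WT libraries, 73.8 to 77.3 in G245S and 83.2 to 84.6 in R273H. Its part in the results below was not tested.

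The WAVE regulatory complex is a pentamer that holds a WAVE protein inactive until the GTPase Rac binds it at the membrane. A CYFIP protein and NCKAP1 form its elongated platform, on which CYFIP carries the Rac-binding surfaces. The WAVE protein (from WASF1, WASF2 or WASF3), an ABI adaptor and the small protein BRK1 form the other subcomplex. Once released, the tail of WAVE activates the Arp2/3 complex, which builds branched actin in lamellipodia. CYFIP1 is also known as a partner of FMRP, the RNA-binding protein encoded by FMR1. CYFIP2 is a known transcriptional target of p53, and its mRNA is a known substrate of A-to-I editing, which gene counts do not show.

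CYFIP2 (ENSG00000055163) lies on the plus strand of chromosome 5 in GRCh38, at chr5:157266079-157395595. Its paralog CYFIP1 (ENSG00000273749) lies on the minus strand of chromosome 15, at chr15:22867052-22981063. The stretches directly before both genes are shown because CYFIP2 differed between the lines and CYFIP1 did not pass any test there. Each is the part of the RefSeq promoter window (GRCh38.p14, first window) that precedes the first annotated base of the gene, 206 bases at chr5:157265873-157266078 for CYFIP2 and 85 bases at chr15:22981064-22981148 for CYFIP1. Capitals would mark a p53 decamer, the repeated unit of a p53 site, and neither holds one.
CYFIP2: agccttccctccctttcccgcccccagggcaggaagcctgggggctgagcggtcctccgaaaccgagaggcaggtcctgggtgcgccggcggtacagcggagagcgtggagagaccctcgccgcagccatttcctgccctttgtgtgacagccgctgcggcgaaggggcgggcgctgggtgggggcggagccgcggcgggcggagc
CYFIP1: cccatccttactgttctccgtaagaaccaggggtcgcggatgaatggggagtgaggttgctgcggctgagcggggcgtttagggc

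The p53 consensus decamer has a core of C, 2 bases that are A or T, and G, and reads the same on both strands in its ambiguity letters. It was searched in RefSeq promoter windows that run from 250 bases before a start to 50 bases after it. The tables held 13 windows for 8 of the 9 genes, the exception being WASF2. None of the 13 windows held a decamer, which 6.64% of all 34943 windows of the same length did. A full site, counted as 2 adjoining decamers with at most 2 mismatches outside the cores, was in 0.157% of all windows and in none of the 13. The first CYFIP2 window was 76.7% G and C and the second, which starts inside the gene, 51%.

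The same full site was then searched in GRCh38 across each gene and the 10 kb before it, a search added after the promoter result was seen. CYFIP2 held 0 matches in 139517 bases, on a chromosome with 0.488 per 100 kb. At that rate a stretch of this length can well hold none. Sites with bases between the decamers or with a changed core were not searched for, so the 0 does not show that CYFIP2 lacks a p53 site. WASF1 held 2, and CYFIP1, NCKAP1 and WASF2 held 1 each, all 5 in introns, while WASF3, ABI1, ABI2 and BRK1 held 0. Per 100 kb searched this is 2.22 for WASF1, 1.04 for WASF2, 0.806 for CYFIP1 and 0.716 for NCKAP1, each from 1 or 2 matches. Over the whole chromosomes that carry these genes, matches occurred at 0.477 to 0.55 per 100 kb. A difference from those rates was not tested. Chromosome 6, which carries WASF1, held 847 matches, 41 of them without a mismatch. The closest matches are given here with the cores in capitals, on the strand of the gene: WASF1 without a mismatch, at chr6:110124076-110124095, and NCKAP1 with 1, at chr2:182928343-182928362. A match is a description of letters and not a measured site, and no p53 binding was measured in these libraries.
WASF1: gggCATGtttaagCAAGccc
NCKAP1: gagCAAGtccggtCATGtcc

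All 9 genes were expressed in all 9 libraries and passed the filter on low counts in each comparison. CYFIP2 was 42.9 and 42.4 CPM in the 2 WT libraries fitted, and 42.2 CPM in WT replicate 3. It was 25.2, 21.8 and 23.5 CPM in the G245S libraries. It was 21.9, 24.5 and 23.6 CPM in the R273H libraries. Every mutant library was below every WT library, the left-out library included, and the mutant lines overlapped each other. The means were 42.6 ± 0.328 CPM in WT (SD, n = 2), 23.5 ± 1.70 in G245S (n = 3) and 23.4 ± 1.34 in R273H (n = 3). In bulk RNA, fewer cells with the mRNA and less of it per cell cannot be told apart.

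On the log2 scale, CYFIP2 was lower in G245S than in WT, with a fold change of −0.85 (SE 0.10, 95% interval −1.07 to −0.63), which is 1.80-fold lower. In R273H the log2 fold change was −0.87 (SE 0.099, 95% interval −1.08 to −0.66), or 1.82-fold lower. These comparisons share the WT libraries and are set side by side without being counted as separate support. The depth behind these values is modest: the fitted libraries held 169 to 373 CYFIP2 counts, and WT replicate 3 held 60. Over 14 alternative settings of each comparison, the log2 fold change of CYFIP2 stayed between −0.91 and −0.80 for G245S and between −0.90 and −0.82 for R273H.

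**Figure D1:**
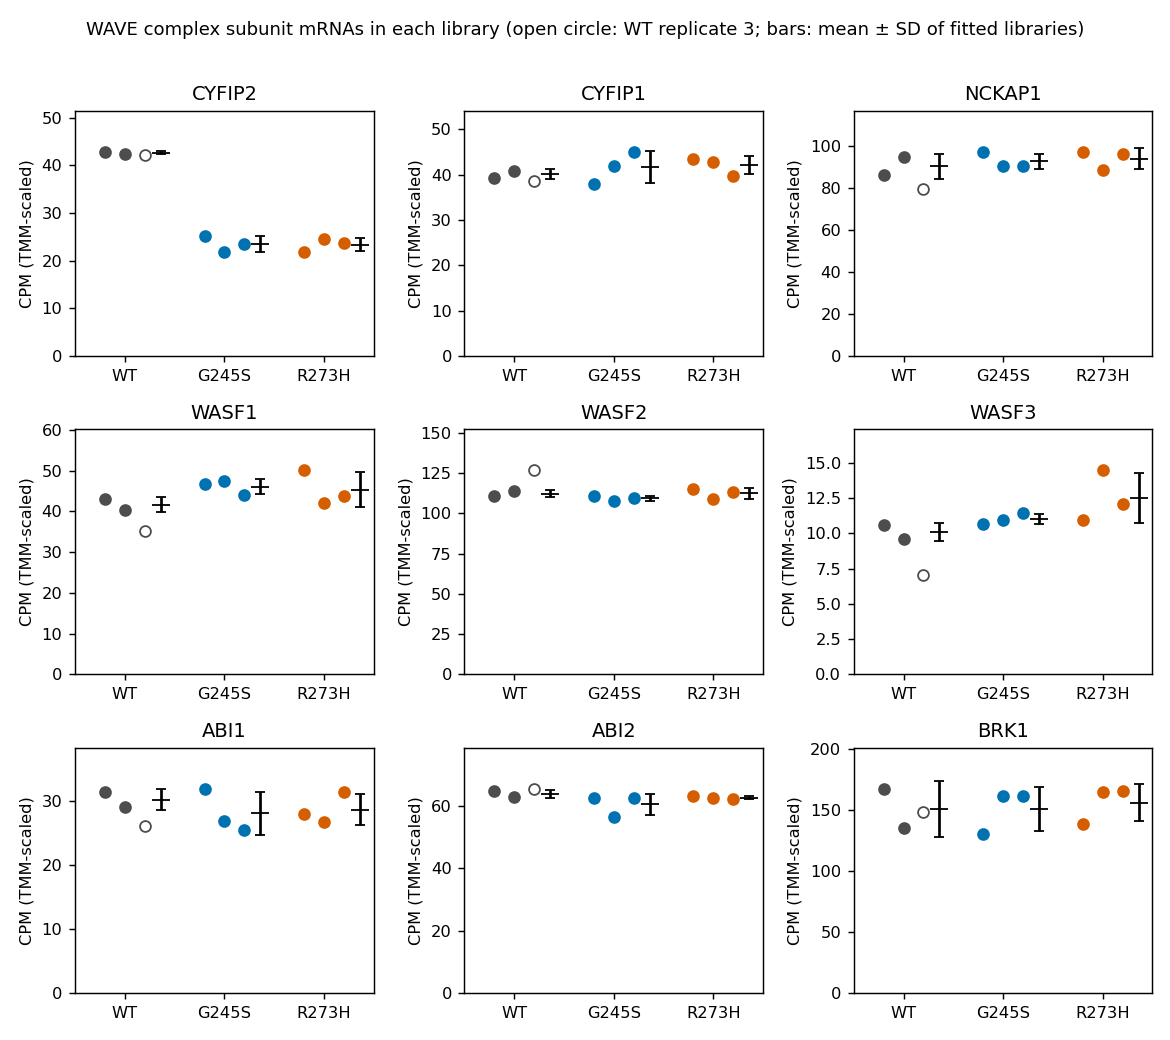
The level of each of the 9 mRNAs is plotted in each library, as CPM after TMM scaling on axes that start at 0, with points for libraries and bars for the mean ± SD of the libraries fitted. CYFIP2 sits at 42.2 to 42.9 CPM in WT and at 21.8 to 25.2 CPM in the mutant lines, whereas the other 8 mRNAs lie at nearby levels in all 3 lines.

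The mutant lines were compared with each other on libraries that share no control. CYFIP2 was not chosen on that contrast, but its choice used the values of both mutant lines, so the comparison is not independent of it. The log2 fold change of CYFIP2 in R273H relative to G245S was −0.02 (SE 0.10, 95% interval −0.24 to 0.19, adjusted p = 0.994, quasi-likelihood test of edgeR with Benjamini-Hochberg adjustment). A difference larger than that interval was not supported in either direction, but a smaller one could not be seen at this depth. No gene passed the adjusted threshold of 0.05 in that comparison among 15614 tested (0%). At an unadjusted p under 0.05 there were 741, and DESeq2 called 1.

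Among the other 8 subunits, none passed the threshold in G245S or in R273H relative to WT, where 0.126% of 15893 genes and 0.137% of 16022 genes did, or between the mutants. None reached an unadjusted p under 0.05 either, in edgeR or in DESeq2. Their log2 fold changes ran from −0.09 to 0.15 in G245S (median 0.023) and from −0.07 to 0.30 in R273H (median 0.053), beside medians of 0.0034 and 0.0023 over all genes tested. The 95% intervals of the 8 genes reached from −0.34 to 0.44 in G245S and from −0.31 to 0.63 in R273H. Between the mutants the 8 log2 fold changes ran from −0.03 to 0.17 (median 0.024), with intervals from −0.21 to 0.45.

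CYFIP1, the paralog that can occupy the same place in the complex, was 39.3, 40.9 and 38.7 CPM in WT, 38.0, 42.0 and 45.1 in G245S, and 43.6, 42.8 and 39.8 in R273H. The lines overlapped. Its log2 fold change was 0.06 (SE 0.099, 95% interval −0.15 to 0.28) in G245S, with an adjusted p of 0.950 in edgeR. In R273H it was 0.07 (SE 0.093, 95% interval −0.13 to 0.27, edgeR adjusted p = 0.994). CYFIP1 was thus not detectably higher where CYFIP2 was lower, and a rise beyond those upper bounds lay outside the intervals.

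NCKAP1, the partner of CYFIP in the platform, was 86.1, 94.4 and 79.4 CPM in WT, 96.8, 90.5 and 90.2 in G245S, and 97.1, 88.3 and 96.1 in R273H. These ranges overlapped, with the shallow WT library the lowest. The log2 fold changes were 0.04 (SE 0.090) and 0.06 (SE 0.090).

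The WAVE genes WASF1, WASF2 and WASF3 can each supply the WAVE subunit, and none of them passed the test. WASF1 was 43.0, 40.3 and 35.1 CPM in WT, 46.7, 47.5 and 43.95 in G245S, and 50.1, 42.1 and 43.9 in R273H. Each G245S library exceeded each WT library, the left-out one included, while R273H overlapped WT. The share of all genes that separate in this way is not given here. Such separation, for WASF1 and below for WASF3 and ABI2, is therefore a description only. Its log2 fold change was 0.15 (SE 0.092, edgeR adjusted p = 0.801) in G245S and 0.13 (SE 0.10, adjusted p = 0.962) in R273H, where it was 0.046 without R273H replicate 1. WASF2, whose protein is the widely expressed WAVE form, was 110.6, 113.6 and 126.8 CPM in WT, 110.6, 107.9 and 109.5 in G245S, and 115.2, 108.8 and 113.3 in R273H. Only the left-out WT library lay well above the rest, and the log2 fold changes were −0.03 (SE 0.085) and 0.01 (SE 0.084).

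WASF3 was the least abundant WAVE mRNA. It was 10.6, 9.64 and 7.03 CPM in WT, 10.7, 10.95 and 11.4 in G245S, and 10.9, 14.5 and 12.1 in R273H, with the WT replicate 3 value resting on 10 counts. All mutant libraries were above all WT libraries, by a narrow margin. In R273H its log2 fold change of 0.30 (SE 0.155, 95% interval −0.03 to 0.63) had an unadjusted p of 0.0729 and an adjusted p of 0.878 in edgeR. It leaned on R273H replicate 2, without which it was 0.19, near the 0.18 of WASF1 in the same setting. In G245S it was 0.13 (SE 0.145, adjusted p = 0.920).

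The ABI adaptors link WAVE to the other subunits. ABI1 was 31.4, 29.0 and 26.0 CPM in WT, 31.9, 26.9 and 25.5 in G245S, and 27.9, 26.7 and 31.4 in R273H. ABI2 was 64.9, 63.0 and 65.6 CPM in WT, 62.5, 56.7 and 62.6 in G245S, and 63.2, 62.5 and 62.3 in R273H. ABI1 overlapped among the lines, and for ABI2 the G245S libraries were just below WT. The log2 fold changes of ABI1 were −0.09 (SE 0.118) and −0.07 (SE 0.108), and those of ABI2 −0.07 (SE 0.090) and −0.03 (SE 0.084). ABI2 had fractional counts in all 9 libraries, since the authors shared multi-mapping reads between loci, so its level is the least certain of the 9 in that respect.

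BRK1 is the smallest subunit and also known to stabilise the complex. Its mRNA was 167.4, 135.0 and 148.3 CPM in WT, 130.3, 161.2 and 161.3 in G245S, and 138.3, 164.4 and 165.7 in R273H. The spread within each line was as wide as that between lines, with an SD of 15.2% of the mean in WT. The log2 fold changes were 0.0014 (SE 0.117) and 0.05 (SE 0.110).

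**Figure D2:**
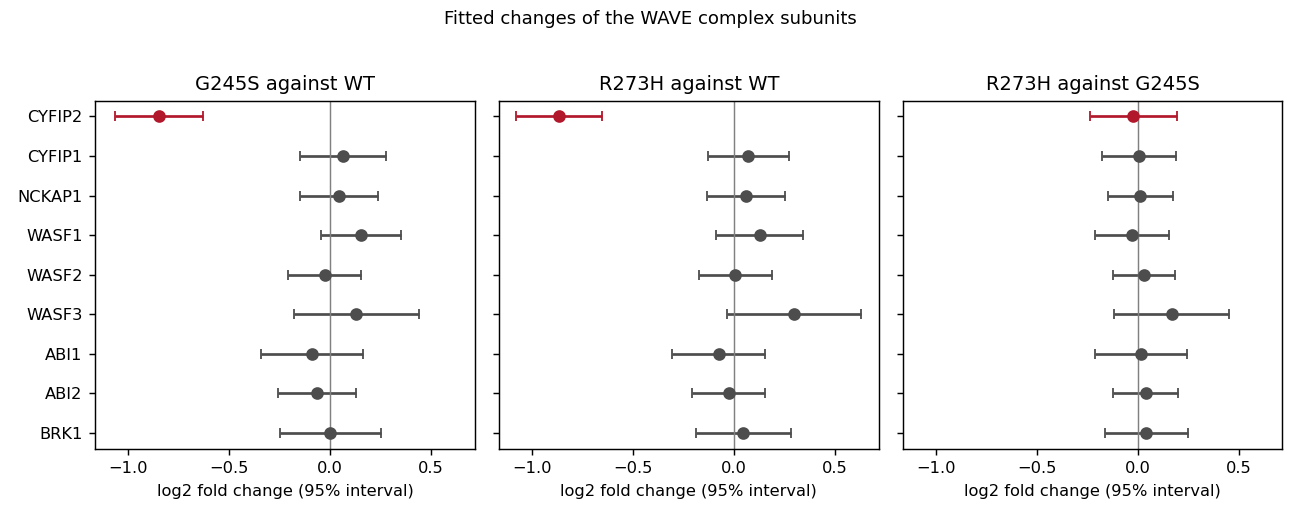
Fitted log2 fold changes of the 9 mRNAs are drawn as points with 95% intervals for the 3 comparisons. CYFIP2 stands at −0.85 and −0.87 against WT and at −0.02 between the mutants, and the intervals of the other 8 genes include 0 in each panel.

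Levels were next compared between genes per length, as CPM per kb of annotated exon. In WT the means were 131.5 for BRK1, 19.7 for WASF2, 12.8 for WASF1, 7.16 for ABI1, 4.04 for CYFIP2, 4.01 for NCKAP1, 3.85 for CYFIP1, 2.75 for ABI2 and 1.95 for WASF3. CYFIP2 and NCKAP1 overlapped between libraries in WT, as did NCKAP1 and CYFIP1. In the mutants CYFIP2 was 2.22 in G245S and 2.21 in R273H, below ABI2 (2.60 and 2.69) and overlapping WASF3 (2.13 and 2.42). The exon lengths run from 1150 bases for BRK1 to 23275 for ABI2 because every annotated exon and long 3′ end is included, and where along a transcript the reads fall is not given in the sources used here. The order between genes depends on those lengths, whereas a comparison of 1 gene between lines does not.

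Paralogs that fill the same position were added as CPM per kb. These sums weight each paralog by its annotated exon length and are approximate as amounts of mRNA. The CYFIP sum was 7.83, 7.94 and 7.70 CPM per kb in WT and 6.03 to 6.55 in the 6 mutant libraries, which do not overlap WT. Relative to the fitted WT mean of 7.88, the mean differed by −21.0% in G245S and −20.7% in R273H, which comes from CYFIP2 and is a description for the same reason. The NCKAP1 level was 4.01 CPM per kb in WT, 4.11 in G245S and 4.17 in R273H. The WASF sum was 34.5, 35.5 and 36.1 in the same order, the ABI sum 9.91, 9.27 and 9.48, and BRK1 131.5, 131.3 and 135.8.

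Shares within a paralog family do not depend on the scaling between libraries, so all 9 libraries were used for them. WT replicate 3, which stood apart in marker genes, is among these, and whether that alters its shares was not tested. CYFIP2 made up 51.8%, 50.6% and 51.8% of CYFIP mRNA per length in WT. It made up 39.5%, 33.8% and 34.0% in G245S, and 33.1%, 36.1% and 36.9% in R273H. The 95% Wilson intervals were 46.7% to 54.4% for the lowest WT library and 35.7% to 43.4% for the highest mutant library. They cover counting error only and are no test of the difference between groups. The mean was 51.4% ± 0.719 (SD, n = 3) in WT and 35.6% ± 2.41 (n = 6) in the mutants, 15.8 percentage points less, with no test because CYFIP2 was chosen on this contrast. CYFIP1 was thus the larger contributor in each of the 6 mutant libraries. In WT neither paralog was clearly larger. The intervals of the CYFIP2 share there, 48.1% to 55.5%, 46.7% to 54.4% and 42.8% to 60.7%, all included an even split.

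**Figure D3:**
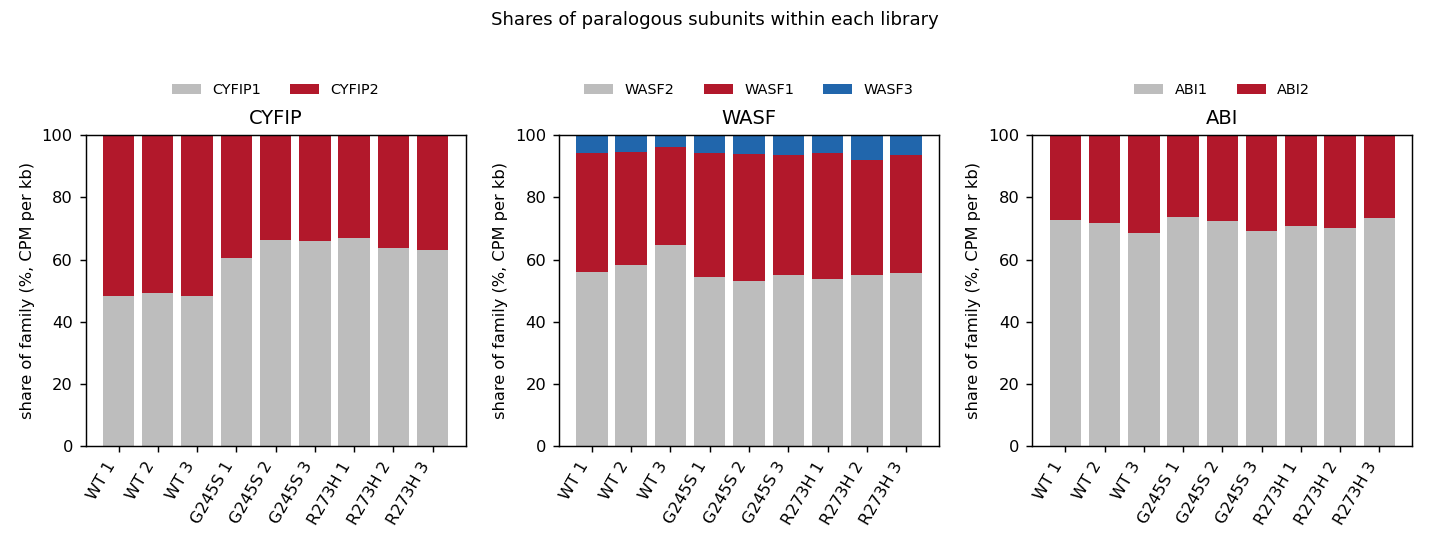
Stacked bars give the share of each paralog in its family, in percent of CPM per kb, for each of the 9 libraries. The CYFIP2 share is 50.6% to 51.8% in WT and 33.1% to 39.5% in the mutants, whereas ABI2 runs from 26.2% to 31.4% over all libraries (66.2% to 71.6% in counts not divided by length).

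The other families were tested with a two-sided exact permutation test over 6 mutant and 3 WT libraries, in which the smallest p possible is 0.0238, with Benjamini-Hochberg adjustment over 4 shares. The units permuted are cultures of 1 line per p53 form, so the p-values do not measure a spread between lines. The ABI2 share of ABI was 28.3% in the mutants and 28.9% in WT, a difference of −0.60 points (exact p = 0.690, adjusted p = 0.690). Which ABI paralog is the larger depends on the length: ABI2 was 66.2% to 71.6% of the ABI counts before division by its long annotated exons, and the difference between groups was then −0.63 points. WASF2 made up 54.5% of WASF mRNA in the mutants and 59.8% in WT, a difference of −5.26 points (exact p = 0.0238, adjusted p = 0.0952). WASF1 was higher by 3.98 points and WASF3 by 1.28 (exact p = 0.0714 and adjusted p = 0.0952 for both). None of the 4 passed after adjustment. A share that alone reached the smallest p possible, as WASF2 did, could not pass when 4 were adjusted together. The WASF2 result is therefore not evidence that its share was unchanged. The 3 WASF shares make up 1 whole and are not separate results. The WASF differences leaned on the shallow WT library, where WASF2 was 64.8% of the family on 240 counts. Without that library the difference for WASF2 was −2.76 points, for WASF1 2.05 and for WASF3 0.70. The exact adjusted p was then 0.286 for each. Leaving that library out raises the smallest p possible above the threshold even before adjustment. No share could pass there, so these p-values do not show that support was lost. The WASF2 share still separated, at 56.1% and 58.4% in the remaining WT libraries and 53.2% to 55.8% in the mutants. The WASF1 and WASF3 shares overlapped.

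Genes around the complex were read from the same fits in 5 lists of 68 genes, of which 62 were tested. None passed the threshold in any of the 3 comparisons, in edgeR or in DESeq2. At an unadjusted p under 0.05 there were 6 of the 62 in G245S, 6 in R273H and 2 between the mutants. Of all genes tested, 6.66%, 6.11% and 4.75% reached that level in the same comparisons. The 6 are a larger share of 62 than those percentages and the 2 a smaller one, which was not tested. Rac and its regulators, with 19 genes tested, held 5 of the 6 in G245S and 4 of the 6 in R273H. The haematopoietic paralogs NCKAP1L and ABI3 and the gene of WASP, WAS, did not pass the filter on low counts, nor did RAC2, VAV1 and GMFG.

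The Arp2/3 complex, the nucleator that WAVE activates, had 10 of 10 genes tested, with medians of −0.02 in G245S and 0.03 in R273H on the log2 scale. The largest differences were in ARPC1B and ACTR3B, which encode a variant subunit each. ARPC1B was 42.7 and 45.3 CPM in the fitted WT libraries, 45.7 to 47.1 in G245S and 53.6 to 57.5 in R273H, with WT replicate 3 at 61.9. The log2 fold change of ARPC1B was 0.33 (SE 0.090, edgeR adjusted p = 0.386) in R273H and 0.09 in G245S. For ACTR3B it was 0.24 (SE 0.119) in G245S and 0.27 (SE 0.120) in R273H, with edgeR adjusted p of 0.768 and 0.788.

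Rac and its regulators, which act on CYFIP from above, had 19 of 21 genes tested, with 11 higher and 8 lower in each mutant before any test and medians of 0.02 and 0.04. RAC3, a Rac GTPase, was 26.8, 21.5 and 26.0 CPM in WT, 14.9, 21.0 and 15.6 in G245S, and 16.9, 17.9 and 16.4 in R273H. Its log2 fold change of −0.50 in both mutants (SE 0.153 and 0.125) did not pass the threshold (edgeR adjusted p = 0.546 and 0.298). ELMO1, part of a Rac exchange factor, was at 0.81 (SE 0.309, edgeR adjusted p = 0.673) and 0.51 (SE 0.362, adjusted p = 0.950), and CYRIA, which encodes a Rac-binding inhibitor of this pathway, at −0.63 (SE 0.420, adjusted p = 0.826) and −0.33 (SE 0.393, adjusted p = 0.990). Both were low, ELMO1 at 0.70 to 3.92 CPM and CYRIA at 0.77 to 2.18. RAC1, named although its difference was not among the largest, was at −0.04 (SE 0.092) and −0.01 (SE 0.089).

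The other nucleation promoters and paralogs had medians of −0.01 and 0.02 over 11 genes, with WHAMM lowest in G245S at −0.35 (SE 0.143, edgeR adjusted p = 0.695) and WIPF3 highest in R273H at 0.28 (SE 0.207, adjusted p = 0.951). The modulators of Arp2/3 and actin turnover had medians of 0.01 and 0.01 over 12 genes and no log2 fold change beyond −0.22 or 0.13. FMRP and the cap-binding partners of CYFIP1 had medians of −0.00099 and −0.0011 over 10 genes. FMR1 was the furthest from 0 in that list, at −0.15 (SE 0.093, edgeR adjusted p = 0.799) and −0.13 (SE 0.091, adjusted p = 0.945).

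**Figure D4:**
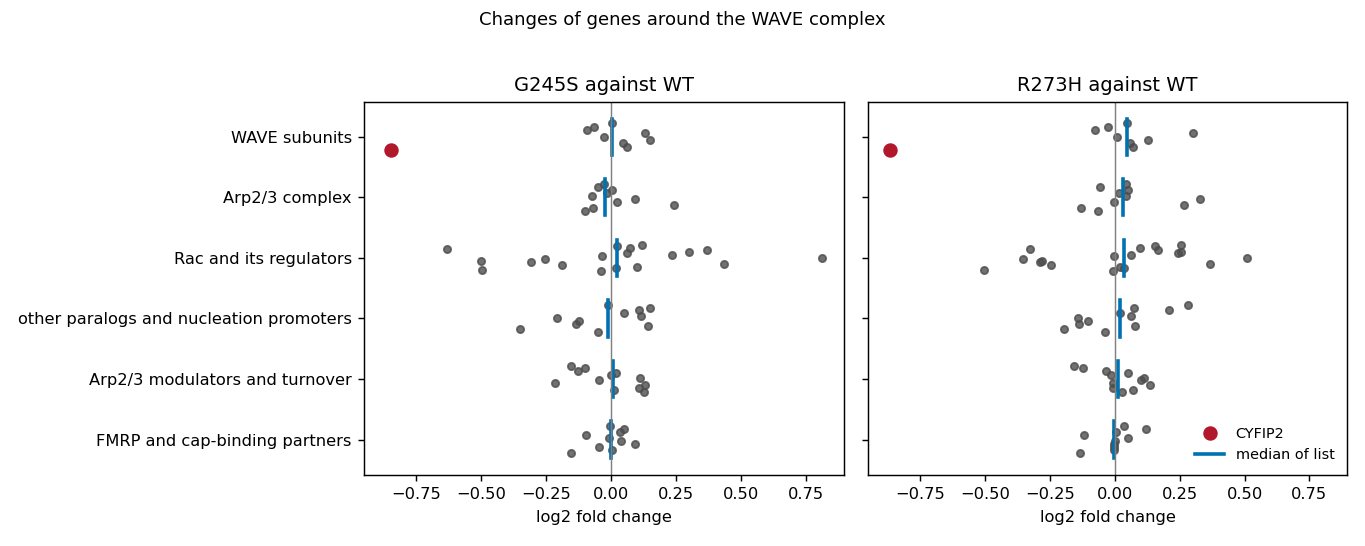
Each point is a tested gene, placed by its log2 fold change in G245S or R273H relative to WT, with a line at the median of each list. CYFIP2, which was chosen by its fall in these libraries, lies at −0.85 and −0.87. None of the 62 tested genes around the complex passed the threshold.

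The location of CYFIP2 was examined through its neighbours. Of 38 genes that start within 500 kb of either end of CYFIP2, 7 besides CYFIP2 were tested: PPP1R2B, MED7, ADAM19, THG1L, LSM11, CLINT1 and ENSG00000309134. None was called in any comparison. ADAM19, a metalloprotease gene that overlaps CYFIP2 on the opposite strand, was 6.32, 4.50 and 5.62 CPM in WT, 5.20, 5.28 and 5.29 in G245S, and 7.03, 3.42 and 7.01 in R273H. Its log2 fold changes were −0.04 (SE 0.211) and 0.12 (SE 0.272). MED7, a subunit of Mediator that starts at −107.1 kb from the CYFIP2 start, was at −0.03 (SE 0.150) and 0.01 (SE 0.180). CLINT1, which encodes a clathrin adaptor, was at −0.17 (SE 0.107) and −0.10 (SE 0.106). The low gene ENSG00000309134 had the widest interval, from −0.12 to 1.43 in G245S. No exon of the 9 subunit genes overlapped another gene on the same strand, and the authors counted by strand.

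**Figure D5:**
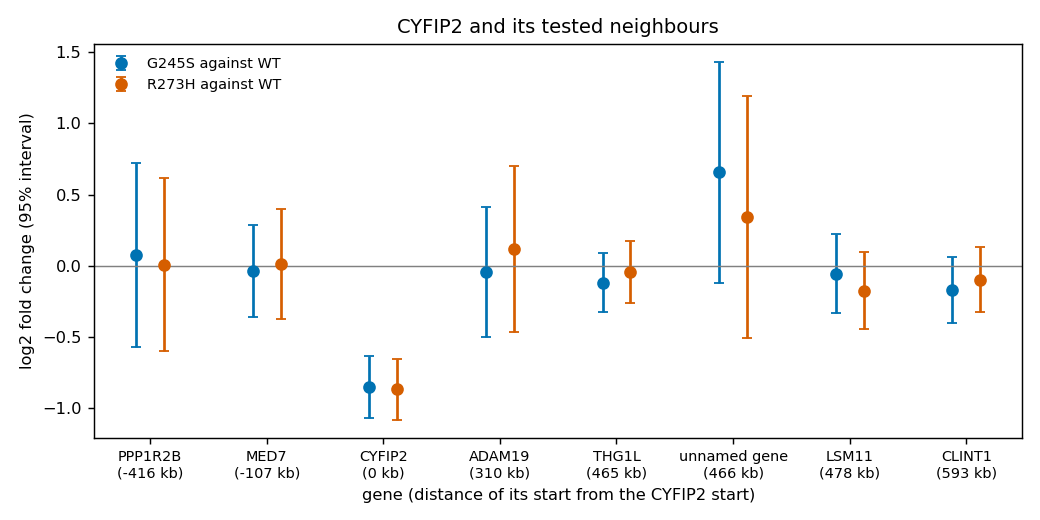
Points show the log2 fold change of CYFIP2 and of the 7 tested neighbours relative to WT, with 95% intervals, in order along the chromosome. CYFIP2 is at −0.85 and −0.87, and the intervals of the 7 neighbours include 0 in both mutants.

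The genes whose pattern over the 8 fitted libraries was most like that of CYFIP2 were found by Pearson's r of log2 CPM among 11029 genes with a mean of at least 5 CPM. The points share their libraries and the difference between lines, so r is a description. MDM2, which encodes the ubiquitin ligase of p53, came first (r = 0.990), followed by DDB2, a DNA damage recognition factor (0.981), PHLDA3, an inhibitor of AKT (0.969), BRI3BP (0.967) and MSL3, part of a histone acetyltransferase complex (0.966). MDM2 averaged 82.0 CPM in WT, 46.1 in G245S and 43.8 in R273H. DDB2 averaged 25.9, 9.81 and 8.47 CPM, and PHLDA3 29.6, 6.30 and 6.97. MDM2, DDB2 and PHLDA3 are known p53 targets. With WT replicate 3 added, r stayed at 0.968, 0.984 and 0.977 for these 3 genes but was 0.685 for BRI3BP and 0.586 for MSL3. The other 8 subunits had r between −0.673 (WASF1) and 0.504 (ABI2) with CYFIP2, and at least 1366 genes had a higher r than any of them.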

How the data were processed

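RNA-seq of 9 libraries was analysed, 3 biological replicates each of HEK293T lines expressing WT, G245S or R273H p53. Per the labels and the methods, the authors filtered reads with fastp 0.24.0, aligned them to GRCh38 with STAR 2.7.11, collapsed duplicates by molecular identifier and counted reads by strand with featureCounts (Subread 2.1.1), sharing multi-mapping reads as fractions. Unnormalized expected counts were deposited, and are the values used. CPM columns that the authors deposited beside them were not used.

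Counts were rounded. Fits excluded WT replicate 3, whose 1486315 counts fell below 0.5 of the median depth of the remaining 8 libraries. The fitted libraries held 7325514 to 9667306 counts. CPM values in the text were recomputed from counts with TMM factors over all 9 libraries. Each comparison was fitted over all genes in edgeR 4.0.16 (R 4.3.3), with filterByExpr, TMM and its quasi-likelihood test, and p-values were adjusted by Benjamini-Hochberg at a threshold of 0.05. SE and 95% intervals are those of the fitted log2 fold change. Wilson intervals of shares cover counting error only. Shares were tested by exact permutation in scipy 1.17.1. DESeq2 1.42.0 was an alternative, and the pipeline was tested on simulated data. Coordinates come from the deposited table, in which 91.8% of the 61463 identifiers shared with GENCODE v44 have the same start or end. Alternatives covered the WT libraries kept, each replicate left out, normalization, filters, rounding, 1 fit of all groups, a replicate block and shares without length.

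The members and lists were chosen with earlier results of these data known. Named were all 9 subunits, from each list genes among the 2 with the largest absolute log2 fold change in a comparison, the tested neighbours within 500 kb, and the 5 genes most like CYFIP2. RAC1, the individual marker genes and the genes that failed the filter were named in addition. A further named result is not reported here.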

Additional observations from a re-analysis of the deposited data

How the results depend on the processing

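With 2 WT libraries the p-values rest on few samples, and 169 to 373 counts of CYFIP2 per fitted library limit what can be seen. None of the 8 subunits other than CYFIP2 passed the threshold as reported or in 14 alternatives per comparison, over 360 fitted values in all with a lowest adjusted p of 0.742 in edgeR or DESeq2. CYFIP2, not tested against WT, kept its direction there. The number of genes called over the whole table moved more. In G245S it was 20, and 10 with all 3 WT libraries, 144 without the filter and 10 to 30 with a replicate left out, 13 without WT replicate 2 and 10 without G245S replicate 3. Leaving out a WT library leaves 1, which is assumed to vary like the mutant libraries. In R273H it was 22, and 93 without the filter. Between the mutants it was 0, and 1 with DESeq2, 125 without the filter and 0 to 3 with a replicate left out, 3 without G245S replicate 2 and 1 without R273H replicate 3. Whether replicate numbers pair the libraries was not settled. Over genes, deviations from the line mean had r = 0.299 between the replicate 2 libraries of G245S and R273H. For replicate 1 r was 0.158 and for replicate 3 −0.019, while mutant pairs with unlike numbers ran from −0.280 to 0.168. The 2 fitted WT libraries mirror each other by construction and decide nothing here. With the number as a block, 76, 47 and 59 genes were called, and the 8 other subunits were not among them. The cause was not tested.

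Differences near 0 changed sign without passing the threshold. For BRK1 in G245S the log2 value was −0.0014 with DESeq2, −5.5e-05 with upper-quartile scaling, −0.046 with the replicate block, −0.0055 in 1 fit of all groups and −0.15 to 0.17 with a replicate left out. WASF2 in R273H was −0.040 with all WT libraries. Between the mutants, library-size scaling gave 0.0044 for CYFIP2 and 0.00037 for WASF1, and no filter gave −0.0067 for CYFIP1 and −0.00079 for NCKAP1. With a replicate left out, G245S relative to WT ran from −0.017 to 0.11 for NCKAP1. R273H relative to WT ran from −0.0045 to 0.13 for NCKAP1, from −0.013 to 0.031 for WASF2 and from −0.10 to 0.21 for BRK1. Between the mutants the ranges were −0.073 to 0.040 for CYFIP2, −0.054 to 0.067 for CYFIP1, −0.010 to 0.054 for NCKAP1, −0.10 to 0.022 for WASF1, −0.054 to 0.13 for ABI1, −0.0080 to 0.068 for ABI2 and −0.050 to 0.13 for BRK1. The ABI2 share differed by 0.61 points without WT replicate 3, and by −1.45 to 0.61 with a replicate left out.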
